A study of Homo sapiens with 9 samples.

Results

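The dual-specificity MAP kinase phosphatases were followed through 2 h of compound treatment in A375R, a human melanoma line that grows in the presence of the BRAF inhibitor PLX4032. The genes were taken by symbol from the deposited table of normalized counts: DUSP1, DUSP2, DUSP4, DUSP5, DUSP6, DUSP7, DUSP8, DUSP10, DUSP14 and DUSP16, which are 10 of its 62710 genes. Cells received DMSO, 10 µM VHL-r, which is the VHL-binding moiety alone, or 10 µM R4VPL3-1, the complete PROTAC-like molecule in which that moiety is joined to the part that binds the ubiquitin ligase RNF4. There were 3 libraries per treatment and 9 in all, from 1 cell line, and the study's methods call the repeats independent and biological. The sample labels of the controls say wild type and give no dose or time, and DMSO comes from the series description. The column names of control replicates 2 and 3 give 2 h, and that of replicate 1 gives no time. PLX4032 is part of the culture medium of this line in the study's methods, so all 3 groups share it. A value is a number of reads divided by a scaling factor of its library, called a normalized count here.

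MAP kinases are switched on when a kinase above them adds phosphate to a threonine and a nearby tyrosine, and the phosphatases described here remove both. Several of them are themselves transcribed in response to MAP kinase activity, which makes them feedback inhibitors with short-lived transcripts. They divide by location and substrate: DUSP1, DUSP2, DUSP4 and DUSP5 are inducible and nuclear, DUSP6 and DUSP7 are cytoplasmic and directed to ERK, DUSP8, DUSP10 and DUSP16 are directed to JNK and p38, and DUSP14 is a small atypical member. In melanoma with a mutant BRAF, transcripts of DUSP4 and DUSP6 are commonly read as output of the ERK pathway.

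The libraries held between 26435568 and 32085626 recovered reads, and the scaling factors lay between 0.9341 and 1.1012. The 10 genes all passed the filter of a mean of at least 10 normalized counts over the 9 libraries, though DUSP8 did so narrowly, at 10.32. Among 8 melanocyte lineage markers, SOX10, MITF, DCT, S100B and PMEL passed that filter, TYRP1 did not, MLANA was listed at 0 in every library and TYR was at or near 0. The 4 leukocyte markers summed to at most 11.81 normalized counts in any library, the 4 keratinocyte markers to between 241.8 and 385.9, and the 4 fibroblast markers to between 1542 and 3295.

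At 2 h, most of the 10 genes differed from DMSO with each compound, DUSP1, DUSP2 and DUSP5 upward and DUSP4, DUSP6 and DUSP10 downward. limma was fitted to log2(normalized count + 1) of the 15230 genes that passed the filter, and a gene counts as called where its p, adjusted over all of them by the Benjamini-Hochberg method, was 0.05 or less. With VHL-r against DMSO, 6 of the 10 were called, where 19.8% of all tested genes were. Of these, 3 were higher, against a background of 10.3%, and 3 were lower, against 9.51%. With R4VPL3-1 against DMSO, 7 were called, with a background of 24.9%. They were 3 higher, against 13.1%, and 4 lower, against 11.8%. Between the compounds, 5 were called, with a background of 1.87%. R4VPL3-1 was higher for DUSP1 and DUSP2, where 1.14% of all genes were higher, and lower for DUSP4, DUSP6 and DUSP7, where 0.729% were lower. The comparisons against DMSO share their control libraries, and a difference of log2 values understates the change of genes with low counts. Since exact permutation of 3 libraries against 3 has 0.1 as its smallest two-sided p, the p-values given are those of the fit over all genes. Bulk RNA cannot tell fewer cells of a kind from less RNA per cell.

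**Figure D1:**
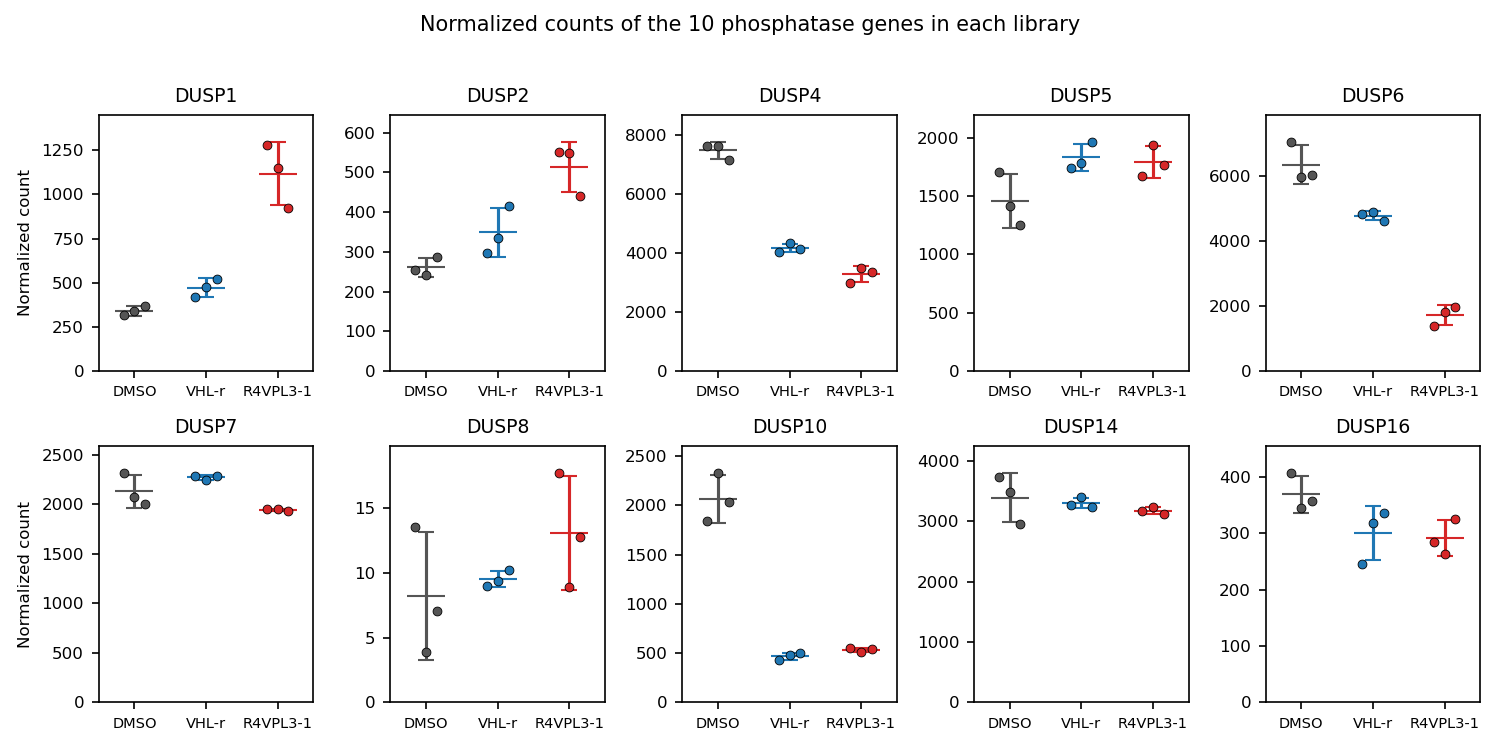
Normalized counts (vertical axes, linear, from 0) of the 10 genes in the 3 libraries of each treatment (horizontal axes); points are libraries, the wide bar is the mean and the whiskers are the SD. DUSP1 stood highest in R4VPL3-1, from 923.9 to 1277.4, DUSP6 lowest there, from 1373.5 to 1961.3, and DUSP10 was low with both compounds.

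DUSP1 (ENSG00000120129, chromosome 5 of GRCh38 from 172768096 to 172771195, minus strand) encodes an immediate-early nuclear phosphatase that acts on p38, JNK and ERK. It rose with both compounds, and further with the complete molecule. Normalized counts were 314.2, 339.4 and 366.1 in DMSO, 416.3, 478.0 and 521.3 in VHL-r and 1277.4, 1152.1 and 923.9 in R4VPL3-1, by replicate. Every VHL-r library was above every DMSO library, and every R4VPL3-1 library was above both other groups. VHL-r against DMSO gave a log2 difference of 0.47 (95% interval 0.25 to 0.69, limma adjusted p = 0.00236). R4VPL3-1 against DMSO gave 1.70 (1.49 to 1.92, limma adjusted p = 9.12e-11), or 3.26-fold. R4VPL3-1 against VHL-r gave 1.24 (1.02 to 1.45, limma adjusted p = 1.06e-07), or 2.35-fold, which placed DUSP1 at rank 36 of 15230 genes from the largest rise. All 3 calls held in 19 of 19 alternative analyses.

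The DUSP1 promoter is shown because it held more of the searched motifs than that of any other gene here. Promoters came from RefSeq, 250 bases before to 50 after each start on GRCh38.p14, and 8 of the 10 genes had an entry, with 9 promoters. A set of 8 motifs was searched on both strands over all 35116 promoters. The lines give 30-base windows on the minus strand, in which capitals mark the full cAMP response element TGACGTCA, the E-box CACGTG and the TATA box TATAAA.
DUSP1 cAMP response element, chr5:172771302-172771331: ggcagggcgggTGACGTCAccgccccgtca
DUSP1 E-box, chr5:172771286-172771315: tcaccgccccgtCACGTGatcaccattcaa
DUSP1 TATA box, chr5:172771208-172771237: ccagaggccgcaTATAAAcgcgctccccgg
The element lies 125 to 118 bases before the start, the E-box 108 to 103 and the TATA box 30 to 25. The full element occurred in 1.85% of all promoters, the E-box in 7.26% and the TATA box in 11.5%. The 5-letter core TGACG, which is contained in the full element, was in 24.6% of all promoters and in those of DUSP1, DUSP8 and DUSP10. No promoter of the 8 genes held the AP-1 site TGANTCA (7.71% of all), the CArG box (1.29%) or the heat shock element core GAANNTTC (6.77%). A match is a run of letters and was not shown to be bound.

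DUSP2 (ENSG00000158050, chromosome 2 from 96143169 to 96145440, minus strand) encodes an inducible nuclear phosphatase of ERK and p38, best known in lymphocytes. Its direction in each comparison was that of DUSP1, at a smaller size. In DMSO the 3 libraries held 254.3, 242.0 and 287.0 normalized counts, those of VHL-r 296.2, 335.1 and 415.8, and those of R4VPL3-1 550.9, 549.2 and 440.0. No 2 groups overlapped, although the highest VHL-r library came near the lowest of R4VPL3-1. R4VPL3-1 against DMSO gave a log2 difference of 0.97 (0.73 to 1.21, limma adjusted p = 2.06e-06), called in 19 of 19 alternatives. VHL-r against DMSO gave 0.41 (0.16 to 0.65, limma adjusted p = 0.016), a call that was lost without DMSO replicate 2 (adjusted p = 0.0765) or VHL-r replicate 3 (0.106). Between the compounds the difference was 0.56 (0.32 to 0.80, limma adjusted p = 0.00833). That call was lost without VHL-r replicate 1 or 2 (adjusted p = 0.068 and 0.0613) and without R4VPL3-1 replicate 1 or 2 (0.0609 and 0.0716), with log2 differences from 0.45 to 0.54. The promoter is shown for the E-box that it shared with DUSP1 and for a site of the EGR family, GCGNGGGCG, which was in 9.43% of all promoters and in those of DUSP2, DUSP14 and DUSP16.
DUSP2 E-box, chr2:96145536-96145565: cagactgcgcccCACGTGaggggcgggggc
DUSP2 EGR site, chr2:96145524-96145553: cacgtgagggGCGGGGGCGggcgcgggcgc
The capitals mark the E-box and the EGR match 103 to 95 bases before the start. A further EGR match, GCGCGGGCG, 93 to 85 bases before the start, lies in lower case in the same window.

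DUSP5 (ENSG00000138166, chromosome 10 from 110497907 to 110511533, plus strand), a nuclear phosphatase specific to ERK, was called higher with each compound than with DMSO and was at a like level with both. The DMSO libraries held 1703.5, 1410.8 and 1248.3 normalized counts, the VHL-r libraries 1743.2, 1785.8 and 1963.4, and the R4VPL3-1 libraries 1672.3, 1936.1 and 1765.4. DMSO replicate 1 was close to the treated libraries and above 1 of R4VPL3-1, so those groups overlapped. VHL-r against DMSO gave a log2 difference of 0.34 (0.17 to 0.52, limma adjusted p = 0.00535). R4VPL3-1 against DMSO gave 0.31 (0.14 to 0.48, limma adjusted p = 0.00877), a call that was lost without DMSO replicate 3 (adjusted p = 0.0696) or R4VPL3-1 replicate 2 (0.0608). Between the compounds the difference was -0.032 with an interval from -0.21 to 0.14 (limma adjusted p = 0.964), so a difference within that interval could not be told from none.

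DUSP4 (ENSG00000120875, chromosome 8 from 29333064 to 29350684, minus strand), a nuclear phosphatase of ERK and JNK, went the other way from the rest of the nuclear group. Normalized counts were 7629.5, 7630.7 and 7138.0 in DMSO, 4036.9, 4317.4 and 4113.3 in VHL-r and 2985.2, 3488.1 and 3355.2 in R4VPL3-1, by replicate. The 3 groups stood apart in the order DMSO, VHL-r, R4VPL3-1. VHL-r against DMSO gave a log2 difference of -0.84 (-0.96 to -0.73, limma adjusted p = 3.67e-10), which corresponds to 55.7% of DMSO. R4VPL3-1 against DMSO gave -1.19 (-1.30 to -1.08, limma adjusted p = 7.72e-13), which corresponds to 43.8%. Between the compounds the difference was -0.35 (-0.46 to -0.23, limma adjusted p = 4.42e-04). All 3 calls held in 19 of 19 alternatives. SOX10, a melanocyte lineage factor, had log2 differences of -0.79, -1.06 and -0.28 in the same comparisons, and the last of these lost its call when VHL-r replicate 2 (adjusted p = 0.0699), VHL-r replicate 3 (0.0757) or R4VPL3-1 replicate 1 (0.0805) was left out. The 8 melanocyte markers together summed to between 20733 and 22517 in DMSO, 11788 and 14670 in VHL-r, and 10359 and 12525 in R4VPL3-1. SOX10 makes up most of that sum. Of the 5 markers tested, SOX10 and MITF were called lower with each compound than with DMSO, and DCT, S100B and PMEL were not called in any comparison. Their part in the DUSP4 values was not tested.

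DUSP6 (ENSG00000139318, chromosome 12 from 89347235 to 89352501, minus strand) encodes the cytoplasmic phosphatase that is most selective for ERK, and its transcription follows ERK activity in many cell types. It showed the widest gap between the compounds of the 10 genes. In DMSO the 3 libraries held 7055.6, 5982.8 and 6035.7 normalized counts, those of VHL-r 4834.4, 4896.2 and 4618.2, and those of R4VPL3-1 1373.5, 1824.7 and 1961.3. No groups overlapped, and the highest R4VPL3-1 library was far under the lowest VHL-r library. VHL-r against DMSO gave a log2 difference of -0.41 (-0.59 to -0.22, limma adjusted p = 0.00217), and the robust option of limma ended this call (adjusted p = 0.0824). R4VPL3-1 against DMSO gave -1.90 (-2.08 to -1.71, limma adjusted p = 1.40e-12), a log2 difference that corresponds to 26.8% of DMSO. R4VPL3-1 against VHL-r gave -1.49 (-1.68 to -1.31, limma adjusted p = 5.66e-10), rank 2 of 15230 genes from the largest fall. Both comparisons of R4VPL3-1 were called in 19 of 19 alternatives. An antisense transcript, ENSG00000274021, lies opposite 20.85% of the 100-base windows of DUSP6. Reads were counted by strand, and the antisense gene held 48.32 to 87.21 normalized counts over the 9 libraries and was not called in any comparison.

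DUSP7 (ENSG00000164086, chromosome 3 from 52048919 to 52056571, minus strand), the other cytoplasmic phosphatase of ERK among the 10, differed by little between groups. The DMSO libraries held 2311.9, 2078.9 and 1999.7 normalized counts, the VHL-r libraries 2284.6, 2244.8 and 2287.1, and the R4VPL3-1 libraries 1949.7, 1955.0 and 1933.5. The DMSO libraries spread across the VHL-r values, while the R4VPL3-1 libraries lay just under all others. Between the compounds the log2 difference was -0.22 (-0.33 to -0.11, limma adjusted p = 0.0283). The call was lost without any 1 of the 6 libraries compared, with adjusted p from 0.0572 to 0.106 and log2 differences from -0.23 to -0.22. Against DMSO neither compound was called, at 0.096 for VHL-r (limma adjusted p = 0.241) and -0.13 for R4VPL3-1 (limma adjusted p = 0.089; 0.0348 without DMSO replicate 3).

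**Figure D2:**
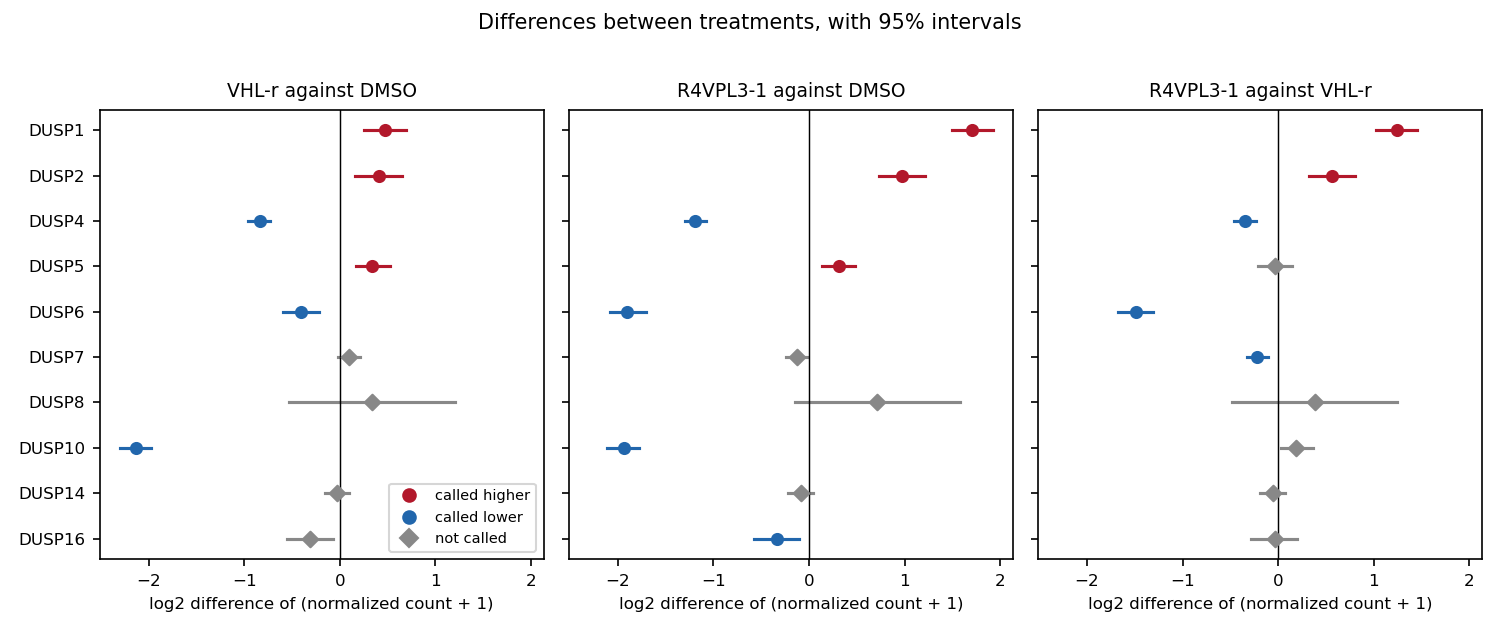
log2 differences of (normalized count + 1) for the 10 genes (vertical axis) in the 3 comparisons (panels), with 95% intervals from limma; circles are called genes, red higher and blue lower, and grey diamonds were not called. DUSP10 was far to the left against DMSO, at -2.13 and -1.94, and near 0 between the compounds, while DUSP6 was far to the left in both comparisons of R4VPL3-1.

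DUSP10 (ENSG00000143507, chromosome 1 from 221701424 to 221742089, minus strand), which encodes a phosphatase of p38 and JNK, had the largest difference from DMSO in the family. Normalized counts were 1840.6, 2321.9 and 2028.1 in DMSO, 428.3, 475.9 and 499.8 in VHL-r and 552.8, 510.4 and 538.5 in R4VPL3-1, by replicate. The treated libraries were all well under the controls, and both compounds gave nearly the same low level. VHL-r against DMSO gave a log2 difference of -2.13 (-2.30 to -1.97, limma adjusted p = 2.39e-13), which corresponds to 22.8% of DMSO, rank 7 of 15230 genes from the largest fall. R4VPL3-1 against DMSO gave -1.94 (-2.11 to -1.78, limma adjusted p = 1.85e-13), rank 20. Both calls held in 19 of 19 alternatives. Between the compounds the difference was 0.19 (0.025 to 0.36), and although the R4VPL3-1 libraries all lay above those of VHL-r it was not called (limma adjusted p = 0.388) in the main analysis or in any of 19 alternatives.

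DUSP16 (ENSG00000111266, chromosome 12 from 12473282 to 12562863, minus strand), which encodes a phosphatase of JNK and p38, was low in all libraries. In DMSO the 3 libraries held 405.9, 344.4 and 356.9 normalized counts, those of VHL-r 246.2, 318.3 and 335.9, and those of R4VPL3-1 283.9, 263.6 and 325.5. All treated libraries were under all DMSO libraries, by a margin smaller than the spread within a group. R4VPL3-1 against DMSO gave a log2 difference of -0.34 (-0.58 to -0.10, limma adjusted p = 0.032). The call was lost without DMSO replicate 1 (adjusted p = 0.143), R4VPL3-1 replicate 1 (0.0821) or R4VPL3-1 replicate 2 (0.143). VHL-r against DMSO, at -0.31 (-0.55 to -0.068), was not called (limma adjusted p = 0.0667), but was without VHL-r replicate 3 (0.0299). Between the compounds the difference was -0.037 with an interval from -0.28 to 0.20 (limma adjusted p = 0.97).

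DUSP8 (ENSG00000184545, chromosome 11 from 1554051 to 1572271, minus strand), also directed to JNK and p38, was barely expressed. The DMSO libraries held 13.6, 3.9 and 7.1 normalized counts, the VHL-r libraries 9.0, 9.4 and 10.2, and the R4VPL3-1 libraries 17.7, 8.9 and 12.8. The groups overlapped in every comparison and none was called, with intervals as wide as -0.15 to 1.58 for R4VPL3-1 against DMSO, so a change within them was not detectable in these libraries. Its promoter is shown because it held the full cAMP response element at 2 places, the pattern that DUSP1 held once. A part of the element in the values of either gene was not tested. Capitals mark the element, on the minus strand.
DUSP8 cAMP response element, far, chr11:1572371-1572400: ccgggctccgcTGACGTCAcctgcccccga
DUSP8 cAMP response element, near, chr11:1572327-1572356: ttggctgcaggTGACGTCAggggctttttt

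DUSP14 (ENSG00000276023, chromosome 17 from 37489891 to 37513501, plus strand), a small phosphatase without the kinase-binding domain of the others, stayed within a narrow range. Normalized counts were 3736.7, 3496.6 and 2956.0 in DMSO, 3276.3, 3408.7 and 3241.7 in VHL-r and 3179.4, 3233.4 and 3126.1 in R4VPL3-1, by replicate. The treated libraries lay inside the DMSO range. The intervals of the log2 difference were -0.16 to 0.099 for VHL-r against DMSO, -0.22 to 0.042 for R4VPL3-1 against DMSO and -0.19 to 0.073 between the compounds. None was called, except R4VPL3-1 against DMSO without DMSO replicate 3 (limma adjusted p = 0.013, log2 difference -0.19).

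Levels can be compared between genes only per length, so each normalized count was divided by the length of the gene's merged exons in kilobases. In DMSO, DUSP6 was highest, at 1648 ± 157 per kilobase (SD, n = 3), followed by DUSP14 at 1393 ± 164, DUSP4 at 1027 ± 39.1 and DUSP10 at 729.9 ± 85.8. DUSP10 overlapped with DUSP5, next at 573.7 ± 91, and the other neighbours in the order did not overlap. DUSP7, DUSP1, DUSP2 and DUSP16 followed, from 375.8 down to 51.75, and DUSP8 was last at 1.657. With VHL-r the order became DUSP14, DUSP6, DUSP5, DUSP4, DUSP7, DUSP1, DUSP2, DUSP10, DUSP16 and DUSP8. There, DUSP2 overlapped with both its neighbours, DUSP1 and DUSP10. With R4VPL3-1, DUSP14 led at 1304 ± 22 and DUSP5 followed at 706.6 ± 52.8. DUSP1 came next at 555.3 ± 89, DUSP4 was at 450.5 ± 35.8 and DUSP6 at 445.7 ± 79.7. DUSP4 overlapped with DUSP1 and with DUSP6 in that group.

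The sum of the 10 genes per kilobase was 6488, 6121 and 5702 in the DMSO libraries, 4790, 4986 and 4970 in VHL-r, and 4233, 4463 and 4215 in R4VPL3-1. The 3 groups did not overlap and stood in that order. Its make-up shifted. DUSP4 and DUSP6 made up 43.8% ± 1.16 (SD, n = 3) of the sum in DMSO, 36.8% ± 1.17 in VHL-r and 20.8% ± 2.49 in R4VPL3-1. DUSP1 and DUSP2 made up 5.01% ± 0.705 in DMSO, 8.44% ± 1.03 in VHL-r and 19.1% ± 2.7 in R4VPL3-1. DUSP8, DUSP10 and DUSP16, grouped above as directed to JNK and p38, made up 12.9% ± 1.68 in DMSO, 4.26% ± 0.318 in VHL-r and 5.4% ± 0.427 in R4VPL3-1. Most of that was DUSP10, at 729.9, 165.5 and 188.9 per kilobase in the same order, beside 51.75, 42.08 and 40.8 for DUSP16. DUSP1, which also acts on JNK and p38, was counted with the nuclear group. The nuclear group as a whole summed to 1904 ± 103, 1709 ± 106 and 1978 ± 128 per kilobase, in the same order of treatments, and the DMSO libraries overlapped with both other groups. These sums are descriptions and were not tested.

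**Figure D3:**
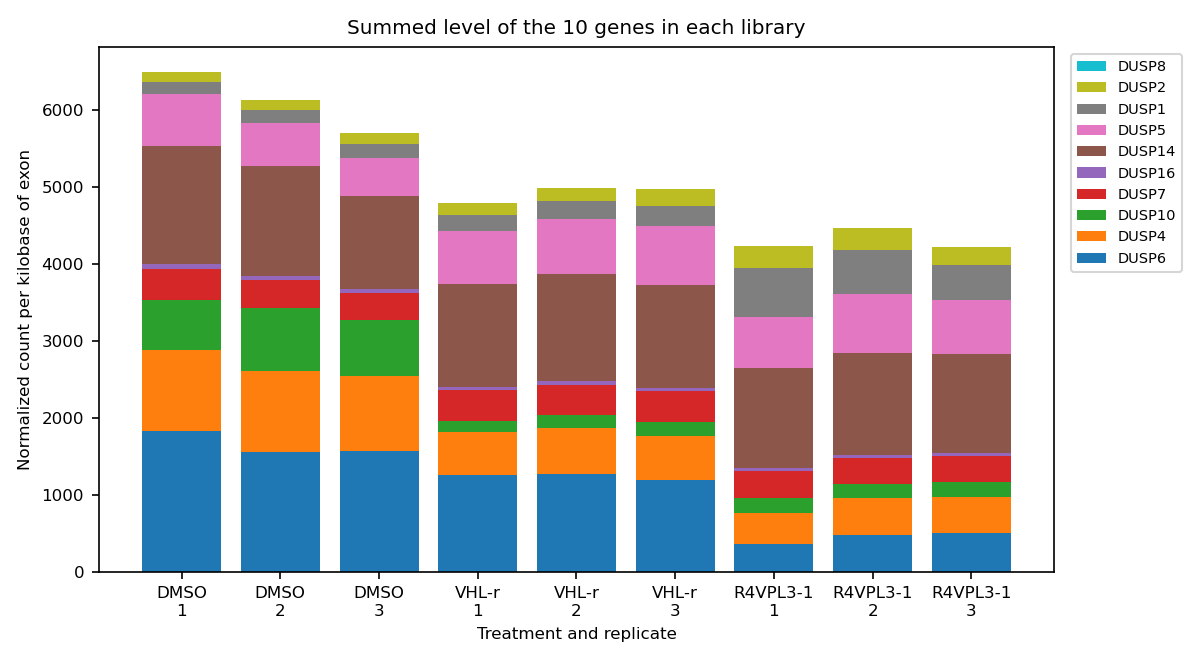
Normalized counts per kilobase of exon (vertical axis, linear, from 0) of the 10 genes, stacked, in each of the 9 libraries (horizontal axis, treatment and replicate). The bars shorten from DMSO, 5702 to 6488, to R4VPL3-1, 4215 to 4463, as the DUSP6, DUSP4 and DUSP10 segments shrink, and the DUSP1 segment widens in R4VPL3-1.

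Phosphatases outside the 10 were listed for comparison. Of 18 other dual-specificity phosphatases and relatives, 16 were found in the table by symbol and 12 passed the filter. VHL-r against DMSO called 1, DUSP3, lower at -0.20 (limma adjusted p = 0.00654), beside 19.8% of all tested genes. R4VPL3-1 against DMSO called 1, DUSP28, higher at 0.58 (limma adjusted p = 0.0144), which was lost without DMSO replicate 2 (0.0944) and without R4VPL3-1 replicate 1 or 2 (0.0678 and 0.0638), and the share over all genes was 24.9%. Between the compounds, where 1.87% of all genes were called, limma called 0 of the 12, with 2 at an unadjusted p under 0.05, and edgeR and DESeq2 also called 0. The values there were 0.48 for DUSP28, -0.20 for DUSP15, 0.13 for DUSP3 and 0.13 for STYXL1. DUSP9, a further cytoplasmic phosphatase of ERK, had means of 334.2 in DMSO, 310.8 in VHL-r and 291.1 in R4VPL3-1 and was not called in any comparison.

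Of 9 phosphatases of MAP kinases from other families, 5 were tested. PPM1D, a p53-induced phosphatase that acts on p38, was called higher with VHL-r (0.33, limma adjusted p = 1.23e-04) and with R4VPL3-1 (0.34, limma adjusted p = 5.54e-05) than with DMSO, as 1 gene of 5 in each. The shares of all tested genes called were 19.8% and 24.9%. Between the compounds limma called 0 of 5, with 0 at an unadjusted p under 0.05, and edgeR and DESeq2 called 0. PTPRR was at -0.11, PPM1L and PPP2CB at -0.038 and PPM1D at 0.015. The tyrosine phosphatases PTPN5 and PTPN7 had means under 1 normalized count in each group and were not tested. PPM1B, with group means from 2.057 to 2.643, and PPP2CA, listed at 0 in each group, were not tested either. Why PPP2CA was at 0 was not tested.

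Among the kinases themselves, calls were made in VHL-r against DMSO, for 1 of 8 MAP kinases and 2 of 7 MAP kinase kinases, where 19.8% of all tested genes were called. The MAP kinase was MAPK14, which encodes p38 alpha and was higher at 0.18 (limma adjusted p = 0.0178). That call was lost without DMSO replicate 1 or 3 (0.0824 and 0.0554) and without VHL-r replicate 1 (0.0772). R4VPL3-1 called 0 of 8 against DMSO, with 1 at an unadjusted p under 0.05, and 0 against VHL-r, with 0 at that level, and edgeR and DESeq2 called 0 in both. The MAP kinase kinases were MAP2K3 at 0.28 (limma adjusted p = 7.46e-04) and MAP2K4 at 0.16 (limma adjusted p = 0.0468), both higher, the second in 10 of 19 alternatives. R4VPL3-1 called 0 of 7 against DMSO and 0 against VHL-r, with 1 at an unadjusted p under 0.05 in each, and edgeR and DESeq2 called 0 in both. The share over all genes was 24.9% against DMSO and 1.87% between the compounds.

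Most of the 16 genes listed here as ERK output were lower against DMSO, as DUSP4 and DUSP6 were. VHL-r against DMSO called 12 of them lower and 2 higher, where 9.51% of all tested genes were lower and 10.3% higher. The median log2 difference was -0.39, beside -0.0045 over all tested genes. Of the lower genes, SPRED1 was called in 15 of 19 alternatives, EPHA2 in 16 and FOSL1 in 18. R4VPL3-1 against DMSO called 13 lower and 2 higher, where 11.8% of all tested genes were lower and 13.1% higher. The median was -0.43 beside -0.0063. Of these lower genes, ETV1 was called in 15 of 19 alternatives and ETV4 in 14. The 2 higher genes were EGR1, an immediate-early transcription factor, and ETV5, named because they were the exceptions in this list. EGR1 was at 2.24 with VHL-r and 2.19 with R4VPL3-1, and ETV5 at 0.45 and 0.40. The AP-1 subunits FOS and JUNB, which were listed apart and are not among the 16, were called higher against DMSO with both compounds. FOS was at 1.64 with VHL-r and 2.74 with R4VPL3-1, and JUNB at 0.86 and 0.73. Of the AP-1 list, 3 genes were called lower with each compound. Between the compounds 4 of the 16 were called, all lower with R4VPL3-1, where 0.729% of all tested genes were lower, and the median was -0.11 beside -0.0056. They were IER3 at -1.43 (limma adjusted p = 5.06e-11), the Sprouty inhibitors SPRY2 at -0.77 (2.04e-08) and SPRY4 at -0.58 (1.95e-06), and PHLDA1 at -0.58 (3.41e-08).

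Of 9 AP-1 subunits listed, which the JNK and ERK pathways act on, 4 were called between the compounds, all higher with R4VPL3-1. Over all tested genes, 1.14% were higher in that comparison. JUN differed most, at 3.93 (limma adjusted p = 1.14e-13), with means of 1989 in DMSO, 1163 in VHL-r and 18384 in R4VPL3-1. ATF3 was at 1.79, FOS at 1.10 and JUND at 0.75. The robust option of limma ended the call of FOS (adjusted p = 0.0727). Against DMSO, VHL-r called 3 higher and 3 lower, where 19.8% of all tested genes were called. The robust option ended the call of JUND there (adjusted p = 0.0625). R4VPL3-1 against DMSO called 5 higher and 3 lower, where 24.9% of all tested genes were called. Of the genes lower with R4VPL3-1, ATF2 was called in 11 of 19 alternatives and BATF3 in 16. FOSL1, also an AP-1 subunit, was counted with the ERK output genes and not here. It was called lower against DMSO with VHL-r (-0.38) and with R4VPL3-1 (-0.55), and was not called between the compounds (-0.17). JUN was among the genes called lower with VHL-r, at -0.77 (limma adjusted p = 5.13e-04; 0.0811 with the robust option), whereas DUSP1 was called higher there. Of 9 heat-shock induced genes, VHL-r against DMSO called 4 higher, R4VPL3-1 against DMSO 8 and R4VPL3-1 against VHL-r 8, and every called gene was higher. Over all tested genes, 10.3%, 13.1% and 1.14% were higher. Between the compounds, the call of HSPB1 was lost with the robust option of limma (adjusted p = 0.24) and with DESeq2 (0.139). It was also lost without VHL-r replicate 1 or 2 (0.0639 and 0.0837). For R4VPL3-1 against DMSO, the robust option (0.0806) and DESeq2 (0.0611) ended the HSPB1 call. The robust option ended the VHL-r call of BAG3 (0.106). HSPA1A was at 4.03 and HSPA1B at 4.02 between the compounds, paralogs whose reads cannot be fully told apart, DNAJB1 at 2.20 and BAG3 at 1.04. All these lists were chosen with earlier results of these data known.

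For each gene called between the compounds, the most alike of all tested genes were found from log2 values centred on the DMSO mean, by root mean square distance over the 9 libraries. HES1, a transcriptional repressor downstream of Notch, was nearest to DUSP6, at a distance of 0.133, with log2 differences of -0.43, -1.91 and -1.49 in the 3 comparisons. IER3 followed at 0.137 and SPRY2 at 0.31, and only 2 genes lay within 0.25 of DUSP6. INSIG1, which restrains sterol synthesis, was nearest to DUSP1 at 0.139, followed by ANKRD37 at 0.152 and the splicing kinase CLK1 at 0.168, and 6 genes lay within 0.25. DUSP4 had CDC42EP3 at 0.086, PDP1 at 0.09 and SOX10 at 0.116, among 89 genes within 0.25. DUSP2 had COX19 at 0.143, ARVCF at 0.145 and BBC3 at 0.156, among 95 genes. DUSP7 had GIGYF2, YARS2 and SKP2 at 0.05 to 0.053, but 9166 genes lay within 0.25 of it, so its pattern was close to that of most genes. DUSP1 and DUSP6 thus had few neighbours, and DUSP7 had very many. With values centred on DMSO, a strongly changed gene has few others near it and an almost unchanged gene has many. These counts therefore largely restate the size of the changes.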

How the data were processed

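RNA from A375R cells was selected for poly(A) and sequenced with strand kept. STAR was used by the authors for alignment to GRCh38, and htseq-count, in reverse mode, gave reads per gene, which were normalized with DESeq2 (1.36.0, version from the submitters' processing notes). The authors deposited a signal of normalized counts, reads divided by a size factor of the library, for 62710 genes. Whole reads were recovered from the steps of the low values, and in each library 100.0% of the values above 0 came out whole within 0.1 read. Recovered totals were 26435568 to 32085626.

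limma (3.58.1, R 4.3.3) with trend was run on log2(normalized count + 1) in a single-factor model over all 9 libraries, for 15230 genes whose mean was 10 or more, and p-values were adjusted over all of them (Benjamini-Hochberg, threshold 0.05). Other settings were a pseudocount of 0.1 or 5, a filter removed or raised to 50, values rescaled by TMM or upper quartile, the robust option of limma, the replicate number as a block, edgeR (4.0.16) or DESeq2 (1.42.0) run on recovered reads, a fit of the 6 compared libraries, a threshold of 0.01, and omission of each replicate in turn. Counts of 19 alternatives leave out the block and the stricter threshold. The fit was tested on simulated data. Gene coordinates are those of the deposited table, and exon lengths, neighbours and strand came from GENCODE 44. On its own strand, no 100-base window of the 10 genes was shared with another gene.

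The genes and lists were chosen with earlier results of these data known. Named are the 10 genes, the 3 tested genes most alike to each gene called between the compounds, JUN and FOS, and up to 4 genes of each list with the largest absolute difference between the compounds. Genes outside this rule were named after their values were seen: EGR1, ETV1, ETV4, ETV5, SPRED1, EPHA2, FOSL1, JUNB, ATF2, BATF3 and HSPB1. So were DUSP9, PTPN5, PTPN7, PPM1B, PPP2CA, the markers and the antisense transcript opposite DUSP6.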

Additional observations from a re-analysis of the deposited data

How the results depend on the processing

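The count of the 10 genes called was within 1.5 times its main value under each alternative for both comparisons with DMSO, 5 to 7 for VHL-r and 5 to 8 for R4VPL3-1. Between the compounds it was 5 in the main analysis and 3 to 5 with each replicate left out. Leaving out replicate 1 or 2 of either compound gave the 3, with DUSP2 and DUSP7 lost. Over the 10 genes, the 3 comparisons and the alternatives, direction and call held in 588 of 620 cases, a call was lost in 21 and gained in 4. The direction turned in 7, all of them in differences that were not called, with a replicate left out. With each replicate left out, VHL-r against DMSO ranged from -0.13 to 0.041 for DUSP14. For DUSP8 it ranged from -0.044 to 0.37 in the omissions where that gene still passed the filter. Without DMSO replicate 1 or R4VPL3-1 replicate 1, DUSP8 fell under the filter and was not tested. R4VPL3-1 against VHL-r ranged from -0.09 to 0.019 for DUSP5, also positive at 0.016, and from -0.17 to 0.05 for DUSP16, also positive at 0.011 and 0.031. At an adjusted p of at most 0.01, 1885 genes in place of 3016 were called in VHL-r against DMSO, and 2494 in place of 3792 in R4VPL3-1 against DMSO. Without R4VPL3-1 replicate 1, 182 genes in place of 285 were called between the compounds. The replicate numbers were not used as pairs in the main fit. Deviations from the group means of libraries with the same number correlated at -0.006 to 0.121, above 0.1 in 2 of 9 pairs. Those with different numbers correlated at -0.148 to 0.098, above 0.1 in 0 of 18. Same-numbered pairs thus reached higher, but not every library correlated best with its own number. With the replicate block, 3451, 4241 and 389 genes in place of 3016, 3792 and 285 were called in the 3 comparisons, and of the 10 genes 7, 7 and 5, the added one being DUSP16 in VHL-r against DMSO (log2 difference -0.31, limma adjusted p = 0.0422). The cause of these changes was not tested. DUSP8, with 3.9 to 17.7 normalized counts, had the widest intervals of the 10 genes.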
